A study of Homo sapiens with 4 samples.

Results

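SREBF1 and 9 enzymes of fatty acid synthesis and desaturation were followed by RNA sequencing in THP-1, an established human leukaemia line whose cells resemble monocytes. The genes were chosen by symbol, and all 10 were found among the 27106 genes of the deposited table. They are SREBF1, FASN, SCD, FADS1, FADS2, ACSL3, ACACA, ACLY, ELOVL5 and ELOVL6. In the knockdown group (2 libraries) the long noncoding RNA SGOL1-AS1 was targeted by an antisense oligonucleotide, which pairs with an RNA and leads to its loss. The controls had received a non-targeting oligonucleotide (2 libraries), and all 4 libraries are labelled day 5. Nothing in the labels says that the libraries came from separate cultures, so p-values measure only the spread among these samples, and that may be technical. The 2 knockdown columns are named by a code with no explanation in the labels and were placed in that group by elimination, on which every direction below rests.

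Fatty acids are built in the cytosol from acetyl-CoA. ACLY cuts citrate to give acetyl-CoA, ACACA carboxylates it to malonyl-CoA, and FASN joins these units into palmitate. ELOVL6 lengthens palmitate, SCD places a double bond in saturated chains, FADS1 and FADS2 desaturate polyunsaturated chains that ELOVL5 lengthens, and ACSL3 couples fatty acids to coenzyme A. SREBF1 encodes SREBP1, a membrane-bound transcription factor that is cut loose in the Golgi and switches on many of these enzymes, while its paralog SREBP2 acts mainly on sterol synthesis. Monocytes and macrophages make membrane lipid by this route.

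The 10 genes were selected with the difference between these groups known. Their fold changes and the count past the threshold are therefore a description and no test of that difference. SREBF1, FASN, SCD, FADS1, FADS2 and ACSL3 were all lower in the knockdown, at 57.5% to 72.3% of the non-targeting mean. ACLY, ELOVL5 and ELOVL6 lay between 92.1% and 107%. ACACA, at 94.8%, held too few reads to be placed. In the fit across all genes (limma on log2 of the normalized count plus 1, adjusted p under 0.05), 6 of the 10 were past the threshold on the lower side and 0 on the higher side, where 3.4% of 19398 tested genes were lower, 0.851% higher and 4.25% either. All of the 6, and ACLY with them, had both knockdown values below both non-targeting values, as did 25.1% of all tested genes. The summed normalized counts of the 10 genes were 128556 and 129747 in the lower and higher knockdown library, against 168528 and 175717 in the non-targeting libraries.

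Promoters of SREBF1, SCD, FADS2 and ACSL3 are shown as a choice from the genes that were lower together. That of ELOVL5 is beside them as a gene that stood near its controls. Windows from 250 bases before to 50 bases after the start were read from RefSeq (GRCh38.p14), which matched 9 of the 10 genes, all but FASN, with 13 windows. Capitals mark CCAAT, the letters bound by NF-Y, on either strand, and the palindromic E-box CACGTG. The SREBF1 window holds neither and is all in lower case. The window of FADS1, which was also lower, holds no CCAAT and is not shown. FADS2 has another window, not shown, that holds no CCAAT either. In the FADS2 window that is shown, CCAAT begins after the start and not before it.
SREBF1, chr17:17836937-17837236, minus strand: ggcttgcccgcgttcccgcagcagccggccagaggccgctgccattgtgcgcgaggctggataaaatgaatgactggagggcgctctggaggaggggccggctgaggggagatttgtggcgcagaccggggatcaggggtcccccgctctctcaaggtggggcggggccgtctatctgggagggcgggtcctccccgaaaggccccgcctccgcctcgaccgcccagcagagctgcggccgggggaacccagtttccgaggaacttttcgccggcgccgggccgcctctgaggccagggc
SCD, chr10:100346983-100347282, plus strand: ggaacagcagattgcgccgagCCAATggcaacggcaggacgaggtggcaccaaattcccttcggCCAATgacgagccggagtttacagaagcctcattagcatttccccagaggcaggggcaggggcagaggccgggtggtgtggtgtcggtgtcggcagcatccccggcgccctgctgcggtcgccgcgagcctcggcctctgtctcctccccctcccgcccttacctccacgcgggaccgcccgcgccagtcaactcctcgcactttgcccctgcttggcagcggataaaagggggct
FADS2, chr11:61816154-61816453, plus strand: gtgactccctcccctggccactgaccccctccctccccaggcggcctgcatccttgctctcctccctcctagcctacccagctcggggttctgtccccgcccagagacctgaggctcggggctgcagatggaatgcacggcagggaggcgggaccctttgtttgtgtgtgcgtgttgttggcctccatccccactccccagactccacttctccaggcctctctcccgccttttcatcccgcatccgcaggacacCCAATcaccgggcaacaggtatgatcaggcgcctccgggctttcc
ACSL3, chr2:222860786-222861085, plus strand: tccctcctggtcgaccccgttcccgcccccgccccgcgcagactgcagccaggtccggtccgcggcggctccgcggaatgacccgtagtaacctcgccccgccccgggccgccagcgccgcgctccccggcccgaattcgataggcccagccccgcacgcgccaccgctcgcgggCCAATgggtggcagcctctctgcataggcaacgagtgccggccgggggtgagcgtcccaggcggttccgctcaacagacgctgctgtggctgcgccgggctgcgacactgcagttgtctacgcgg
ELOVL5, chr6:53348901-53349200, minus strand: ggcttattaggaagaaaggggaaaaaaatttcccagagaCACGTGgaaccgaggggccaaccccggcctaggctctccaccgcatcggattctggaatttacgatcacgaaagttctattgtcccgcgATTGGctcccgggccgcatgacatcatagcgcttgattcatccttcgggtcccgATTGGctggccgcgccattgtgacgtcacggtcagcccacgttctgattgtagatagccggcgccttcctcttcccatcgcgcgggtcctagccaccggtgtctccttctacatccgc

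CCAAT was present in 8 of the 13 windows, belonging to SCD, FADS2, ACSL3, ACLY, ACACA and ELOVL5, against 34.6% of all 35116 promoter windows. ACACA, ACLY and FADS2 have more than 1 window, which gives them more chances of a match. The windows of ACLY overlap and hold the same CCAAT sites, which are thus counted in both. The Sp1 letters GGGCGG were in 10 of the 13 windows and in 45.0% of all windows. CANNTG, the general E-box that includes CACGTG, was in 5 of 13 windows and in 68.7% of all windows, and CACGTG itself only in that of ELOVL5, against 7.26% of all windows. TCACNCCAC, the core of the sterol regulatory element, was in 0 of the 13 windows and in 1.13% of all windows. Sites outside these windows, or at starts with no window, were not read. SREBF1 has 23 annotated starts, and its window lies at the upstream end of the gene. Starts further inside the gene, where a shorter transcript could begin, are not covered. Absence from a window is therefore no evidence that a gene lacks the site. The letters found in these windows did not separate the lower genes from the others. The windows of SREBF1 and FADS1 held no CCAAT, and those of ELOVL5 and ACLY did. The window of ELOVL6, also not called lower, held none. FASN had no window, and ACACA, which held CCAAT, had too few reads to be placed on either side.

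SREBF1 (ENSG00000072310) lies on the minus strand of chromosome 17 from 17810399 to 17837002 (GRCh38, GENCODE 29). It stood at 3585 and 3378 normalized counts in the knockdown libraries, against 6378 and 5724 in the non-targeting libraries. The groups did not overlap, and SREBF1 was the lowest of the 10 genes relative to its controls. The means were 3481 ± 146.1 and 6051 ± 462.9 (SD, n = 2 each), a log2 fold change of -0.80 ± 0.06 (SE). Of the 19398 tested genes 157 had a lower log2 fold change. The table counts the whole gene, so the SREBP1a and SREBP1c transcripts, which begin at different exons, are not told apart. Of the exonic bases of SREBF1, 6.92% are shared with RAI1 on the opposite strand, whose log2 fold change was -0.05 ± 0.07 (limma, adjusted p = 0.746). The strand setting of the counting is not given in the sources used here.

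SREBF2, which encodes SREBP2, stood at 11588 and 10892 normalized counts in the knockdown libraries, against 13955 and 12948 in the non-targeting libraries. It fell by 0.26 on the log2 scale (limma, adjusted p = 0.00449). Per kilobase of exon, the ratio of SREBF1 to SREBF2 was 0.291 and 0.292 in the knockdown libraries, against 0.430 and 0.416 in the non-targeting libraries. A ratio within a library is the same under any scaling by 1 factor per library. The call of SREBF2 ended without non-targeting replicate 1 (-0.20; limma, adjusted p = 0.184) and after quantile normalization (adjusted p = 0.0544).

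**Figure D1:**
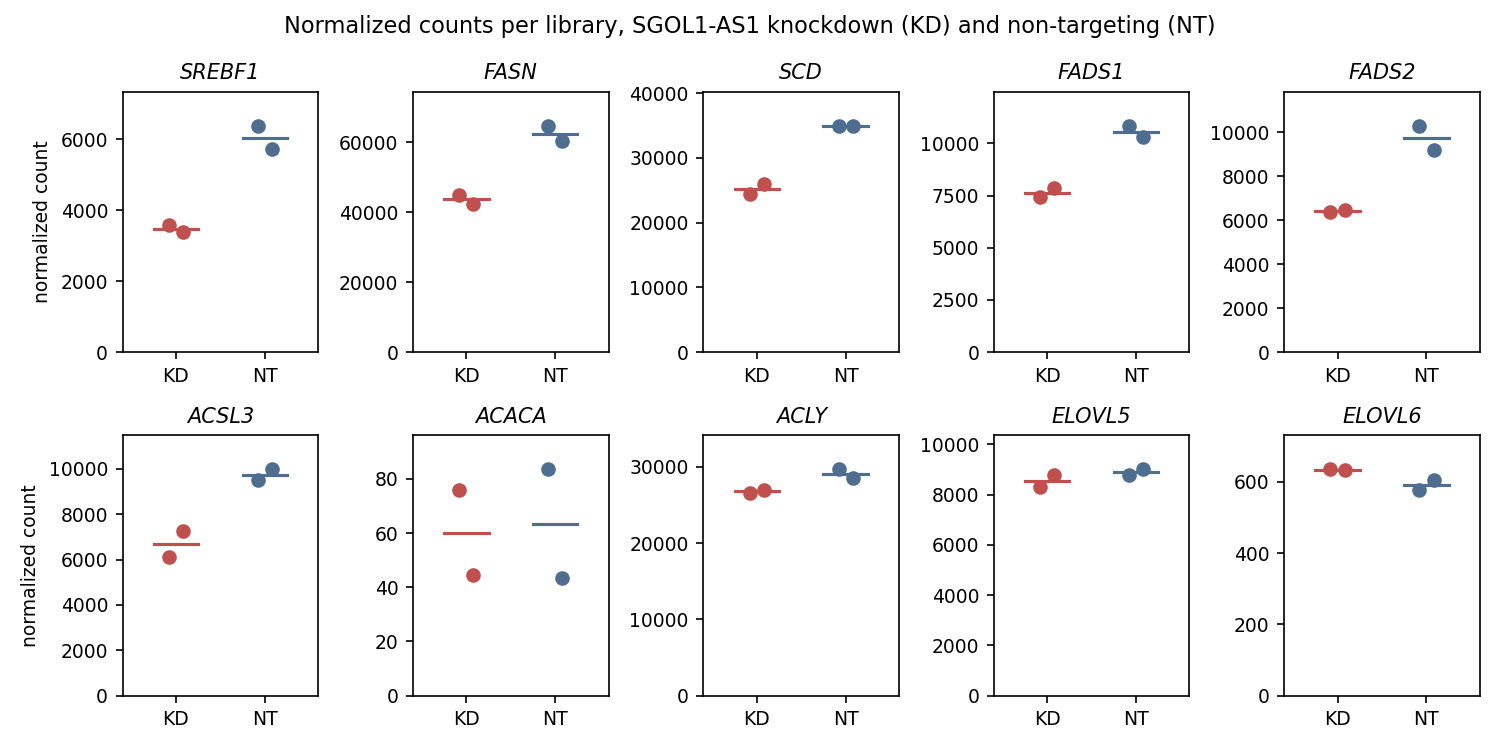
Normalized counts (y axis, from 0) of each of the 10 genes in the 2 knockdown (KD) and the 2 non-targeting (NT) libraries; points are libraries and lines are group means. For SREBF1, FASN, SCD, FADS1, FADS2 and ACSL3 both knockdown points sit well below both non-targeting points, while the ACACA points are split within each group.

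FASN (ENSG00000169710, chromosome 17, 82078333 to 82098332, minus strand) had 44918 and 42405 normalized counts in the knockdown libraries, against 64679 and 60233 in the non-targeting libraries. Its means were 43661 ± 1777 and 62456 ± 3144 (SD, n = 2 each), a log2 fold change of -0.52 ± 0.05 (SE). It was the most abundant of the genes, so the absolute difference was the widest. ACLY (ENSG00000131473, chromosome 17, 41866908 to 41930542, minus strand), the step that feeds FASN, had 26626 and 26970 normalized counts in the knockdown libraries and 29655 and 28532 in the non-targeting libraries. Both knockdown values were below both controls, but the log2 fold change was only -0.12 ± 0.05 (SE) and was not past the threshold. Per kilobase of exon, FASN stood at 0.940 and 0.876 times ACLY in the knockdown libraries, against 1.22 and 1.18 times in the non-targeting libraries.

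SCD (ENSG00000099194, chromosome 10, 100347124 to 100364834, plus strand), the stearoyl-CoA desaturase, had 24440 and 25952 normalized counts in the knockdown libraries, against 34943 and 34911 in the non-targeting libraries. The non-targeting values were nearly equal, and the log2 fold change was -0.47 ± 0.05 (SE). Its paralog SCD5 had a log2 fold change of -0.05 ± 0.08 (limma, adjusted p = 0.804), and SCD per kilobase stood at 29.8 and 34.3 times SCD5 in the knockdown libraries, against 43.5 and 41.9 times in the non-targeting libraries. The nearest tested gene beyond the 3′ end of SCD, 8.68 kilobases away, was the long noncoding RNA OLMALINC. It had 340.4 and 363.8 normalized counts in the knockdown libraries and 578.1 and 543.8 in the non-targeting libraries, and it fell by 0.67 on the log2 scale (limma, adjusted p = 0.000139). Of the 19 nearest tested neighbours of the 10 genes, other than members, OLMALINC alone passed the threshold by limma, beside 4.25% of all tested genes. At an unadjusted p under 0.05 by limma were 6 of the 19, beside 3336 of all 19398 tested genes. The neighbours other than OLMALINC ranged from -0.93 to 0.74 in log2 fold change. The genes at both ends of that range had at most 31.9 normalized counts in any library.

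FADS1, the delta-5 desaturase, and FADS2, the delta-6 desaturase, are neighbours on chromosome 11 and were lower together. FADS1 (ENSG00000149485, 61799625 to 61829318, minus strand) had 7431 and 7863 normalized counts in the knockdown libraries, against 10840 and 10302 in the non-targeting libraries. FADS2 (ENSG00000134824, 61792980 to 61867354, plus strand) had 6390 and 6464 in the knockdown libraries, against 10281 and 9197 in the non-targeting libraries. The groups did not overlap for either gene. The log2 fold changes were -0.47 ± 0.05 for FADS1 and -0.60 ± 0.06 for FADS2 (SE). By annotation the body of FADS1 lies within that of FADS2 on the other strand, and they share 490 exonic bases, which is 4.79% of FADS1 and 4.44% of FADS2. Reads in that stretch cannot be told apart without the strand setting. FADS3, the next gene of the cluster, had a log2 fold change of -0.17 ± 0.13 (limma, adjusted p = 0.558). TMEM258, on the other side of FADS2, stood at 0.05 and was not past the threshold. FEN1 stood at -0.12, also not past the threshold. By annotation FEN1 overlaps FADS2 by 4265 bases on the same strand, and they share 49 exonic bases, where strand cannot tell reads apart.

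ACSL3 (ENSG00000123983, chromosome 2, 222860934 to 222944639, plus strand), an acyl-CoA synthetase of the endoplasmic reticulum and lipid droplets, had 6135 and 7270 normalized counts in the knockdown libraries, against 9514 and 9980 in the non-targeting libraries. The groups did not overlap, with a log2 fold change of -0.55 ± 0.06 (SE). The knockdown libraries differed from each other by 0.24 on the log2 scale, more than for SREBF1, FASN, SCD, FADS1 or FADS2, where they differed by at most 0.09. Against the non-targeting mean, ACSL3 stood at -0.67 in knockdown library 1 and at -0.42 in knockdown library 2. ACSL4, which prefers arachidonic acid, had 5978 and 6852 normalized counts in the knockdown libraries, against 7425 and 8128 in the non-targeting libraries, and it fell by 0.28 (limma, adjusted p = 0.00825). Like ACSL3 it was lower in knockdown library 1 than in knockdown library 2. The call of ACSL4 ended without non-targeting replicate 2 (-0.21; limma, adjusted p = 0.127) and under quantile or equal-total scaling (adjusted p at most 0.0647).

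The elongases stood close to their controls. ELOVL5 (ENSG00000012660, chromosome 6, 53267398 to 53349179, minus strand) had 8320 and 8768 normalized counts in the knockdown libraries and 8766 and 9001 in the non-targeting libraries, which overlap. Its log2 fold change was -0.06 ± 0.05 (SE) and came to 0.00 when library totals were set equal. ELOVL6 (ENSG00000170522, chromosome 4, 110045846 to 110199199, minus strand) had 634.9 and 633.0 in the knockdown libraries, against 577.2 and 605.9 in the non-targeting libraries. It was the only one of the 10 with both knockdown values above both non-targeting values, at a log2 fold change of 0.10 ± 0.08 (SE) that was not past the threshold. Of all tested genes, 21.6% had both knockdown values above both controls. Relative to ELOVL6 per kilobase, SCD stood at 52.4 and 55.8 in the knockdown libraries, against 82.4 and 78.4 in the non-targeting libraries.

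ACACA (ENSG00000278540, chromosome 17, 37084988 to 37406818, minus strand), the acetyl-CoA carboxylase of the cytosol, held 79 and 39 reads in the knockdown libraries and 87 and 46 in the non-targeting libraries. In each group library 1 held more than library 2, the groups overlapped, and the log2 fold change was -0.05 ± 0.28 (SE). Its sign turned with the setting, to 0.33 without knockdown replicate 2, 0.42 without non-targeting replicate 1 and 0.01 when totals were set equal. The level was 4.75 normalized counts per kilobase over all libraries, against a median of 188 over the coding genes of the table. Coding genes nearby were low too. Of the 11 other coding genes within 500 kilobases, 6 were in the table, with a median of 6.62 per kilobase and no mean above 230.0 normalized counts. The table also holds 1029 identifiers outside the primary assembly annotation used here. Whether reads of ACACA were counted under another identifier was not tested. The paralog ACACB, the carboxylase of the mitochondrial surface, had a log2 fold change of -0.09 ± 0.07 (limma, adjusted p = 0.514).

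**Figure D2:**
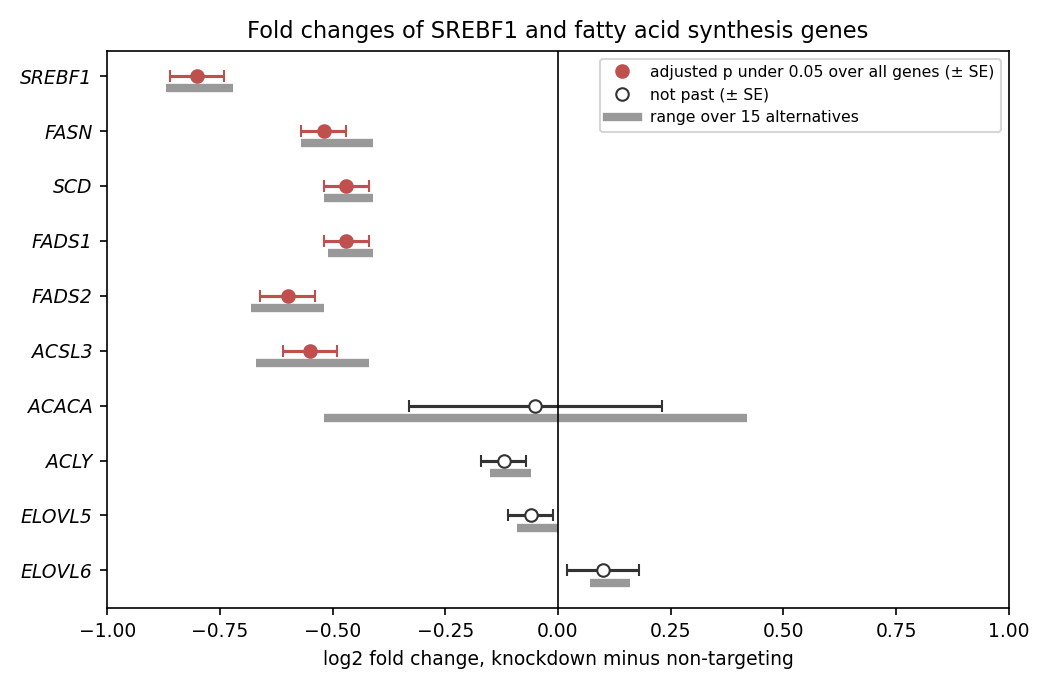
Log2 fold change, knockdown minus non-targeting (x axis), of the 10 genes with SE, filled where the adjusted p over all genes was under 0.05; grey bars are the lowest and highest value over 15 alternative settings. The bars of the 6 lower genes stay between -0.87 and -0.41, and that of ACACA runs from -0.52 to 0.42.

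Compared per kilobase of exon, which allows levels of different genes to be set side by side, the order in the non-targeting libraries was FASN, SCD, ACLY, ELOVL5, ACSL3, FADS1, FADS2, SREBF1, ELOVL6 and ACACA. FASN stood at 6907 and 6432 per kilobase there and SCD at 6517 and 6511, so the first places do not differ beyond their spread. In the knockdown libraries ACLY came to lie at the top, with 5104 and 5170 per kilobase, above FASN with 4797 and 4528 and SCD with 4558 and 4840, which overlap each other. All other neighbours in the order had values that did not overlap within either group. ELOVL5 followed in both groups, at 2182 and 2300 in the knockdown libraries and 2299 and 2361 in the non-targeting libraries. The desaturases FADS1 and FADS2 stood lower, with FADS2 at 579.5 and 586.3 per kilobase in the knockdown libraries and 932.4 and 834.1 in the non-targeting libraries. SREBF1 itself stood at 446.4 and 420.7 in the knockdown libraries, against 794.3 and 712.8 in the non-targeting libraries. Lengths are the union of all annotated exons, which understates the level of a gene that uses few of them.

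**Figure D3:**
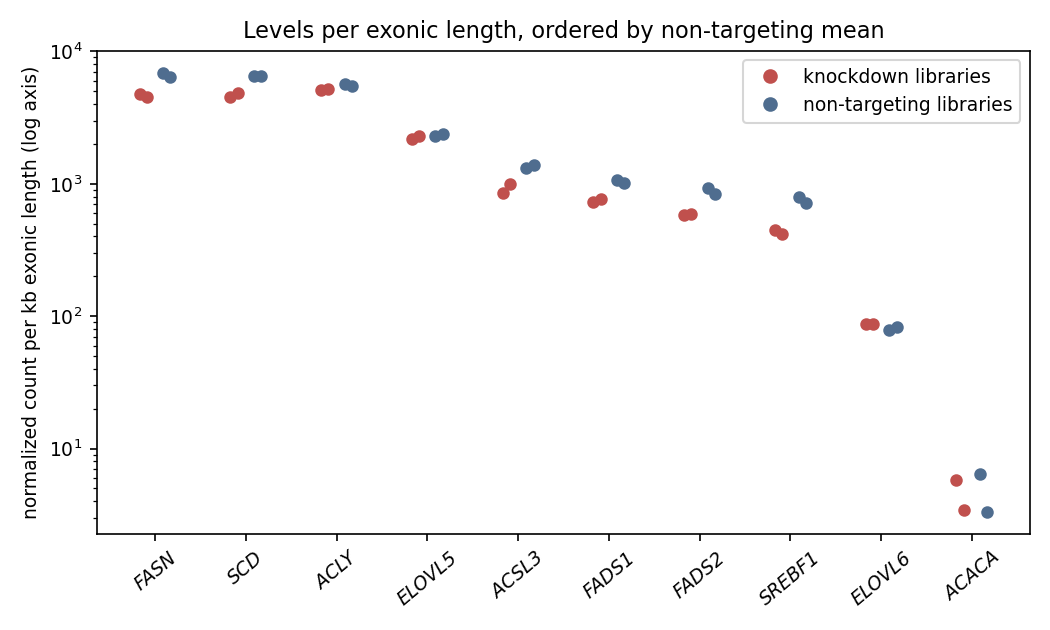
Normalized count per kilobase of exonic length (y axis, log scale) of the 10 genes in each knockdown and non-targeting library, ordered by the non-targeting mean. FASN, SCD and ACLY lie within 4528 to 6907, and ACACA lies more than an order of magnitude below ELOVL6.

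Within an intron of SREBF1 lies MIR33B, and an intron of SREBF2 holds MIR33A. Their mature RNAs repress cholesterol efflux and fatty acid oxidation genes and share their seed (bases 2 to 8, capitals; RefSeq, GRCh38.p14).
hsa-miR-33b-5p: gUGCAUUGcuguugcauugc
hsa-miR-33a-5p: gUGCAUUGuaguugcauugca
Reads assigned to MIR33B numbered 6 over the knockdown libraries and 23 over the non-targeting libraries, a rate ratio of 0.286. Its exact 95% interval, for counting error alone, was 0.0952 to 0.722. Such reads could also come from the SREBF1 transcript that contains the hairpin, and the mature miRNA was not measured. MIR33A had at most 2.88 normalized counts in any library.

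Other enzymes that supply or steer the pathway moved in part. Of 12 listed, 10 were tested. By limma 3 of them fell and 0 rose, where 3.4% of all tested genes were lower. The list had a median log2 fold change of -0.11, beside -0.01 over all tested genes. MID1IP1, which activates acetyl-CoA carboxylase by driving it into filaments, had 6432 and 6499 normalized counts in the knockdown libraries, against 8185 and 7760 in the non-targeting libraries, and it fell by 0.30 (limma, adjusted p = 0.000885). SLC25A1, the mitochondrial citrate carrier, had 8631 and 8110, against 10395 and 9448 in the non-targeting libraries, and fell by 0.24 (limma, adjusted p = 0.00982). ACSS2, which makes acetyl-CoA from acetate, fell by 0.25 (limma, adjusted p = 0.0253). The enzymes of mitochondrial fatty acid synthesis, MCAT, OXSM, MECR and CBR4, had log2 fold changes from 0.00 to 0.12, none past the threshold. Among 15 alternatives the call of MID1IP1 held in 14, that of SLC25A1 in 11 and that of ACSS2 in 8. Without non-targeting replicate 1 the limma adjusted p was 0.341 for SLC25A1 and 0.124 for ACSS2, which was also lost without non-targeting replicate 2 (0.198) or knockdown replicate 1 (0.0839).

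Of 16 other elongation and desaturation genes, all tested, 0 passed by limma, with 4 at an unadjusted p under 0.05, and edgeR and DESeq2 also called 0. Limma called 2 as lower without knockdown replicate 1, and 1 each without knockdown replicate 2, without non-targeting replicate 2 and with robust empirical Bayes. The gene with the smallest p was HSD17B12, the ketoacyl-CoA reductase of the elongation cycle, at -0.19 ± 0.06 (limma, adjusted p = 0.0865). Of 14 other acyl-CoA synthetases and fatty acid carriers 12 were tested, and ACSL4, described above, was the 1 that passed. Over all tested genes 4.25% passed in either direction.

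In the SREBP machinery 21 of 23 listed genes were tested. Of these 3 fell and 0 rose, with a median of -0.06, where 3.4% of all tested genes were lower. INSIG1, the sterol-regulated anchor of SCAP and a SREBP target, had 5990 and 6323 normalized counts in the knockdown libraries and 9347 and 9701 in the non-targeting libraries, a log2 fold change of -0.63 ± 0.05 (SE; limma, adjusted p = 1.02e-07). USF1, an E-box factor, fell by 0.20 (limma, adjusted p = 0.0402), a call that held in 5 of 15 alternatives and ended without knockdown replicate 1 (adjusted p = 0.116), non-targeting replicate 1 (0.335) or non-targeting replicate 2 (0.184). The RNAs for the proteins that carry and cut SREBP were close to their controls: SCAP stood at -0.06, and the proteases MBTPS1 and MBTPS2 at 0.00 and -0.05 (none past the threshold). The liver X receptor genes NR1H3 and NR1H2, whose products switch on SREBF1, stood at -0.14 ± 0.09 and -0.16 ± 0.06 (limma, adjusted p = 0.432 and 0.16). RNA levels do not show how much SREBP1 was cut.

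Genes that use or break down fatty acids formed the next lists, where 2 of 21 tested genes fell on each, beside 3.4% of all tested genes. In glycerolipid synthesis 21 of 23 listed genes were tested and 2 fell, with a median of -0.07. They were the lysophosphatidate acyltransferases AGPAT3, by 0.22 (limma, adjusted p = 0.0074), and AGPAT2, by 0.22 (limma, adjusted p = 0.0285). In fatty acid oxidation 2 of 21 tested genes fell, with a median of -0.04. PPARD, a nuclear receptor that switches on oxidation genes, fell by 0.28 (limma, adjusted p = 0.0243), and CPT2, the inner-membrane carnitine palmitoyltransferase, by 0.21 (limma, adjusted p = 0.0396). EdgeR called 1 gene on each of these lists and DESeq2 1 and 0, and the calls of AGPAT3, PPARD, AGPAT2 and CPT2 held in 11, 10, 8 and 5 of 15 alternatives. Each of the 4 ended without non-targeting replicate 1, at limma adjusted p from 0.134 for AGPAT3 to 0.434 for PPARD. AGPAT3 (0.0774) and CPT2 (0.167) also ended without non-targeting replicate 2, AGPAT2 (0.165) without knockdown replicate 2 and CPT2 (0.0729) without knockdown replicate 1.

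Of 22 genes of sterol synthesis and uptake, which SREBP2 governs, 21 were tested. Of these 11 fell and 0 rose, where 3.4% of all tested genes were lower. All 21 had a negative log2 fold change, from -0.44 to -0.03 (median -0.26, beside -0.01 over all tested genes). STARD4, a sterol carrier protein, had 2634 and 2981 normalized counts in the knockdown libraries and 3418 and 3803 in the non-targeting libraries and fell by 0.36 (limma, adjusted p = 0.00163). The synthesis enzymes LSS, IDI1 and FDPS fell by 0.44, 0.30 and 0.28 (limma, adjusted p = 0.00322, 0.00352 and 0.00278). The call of LSS ended without non-targeting replicate 1 (adjusted p = 0.0881), and those of IDI1 (0.0781) and FDPS (0.0754) without non-targeting replicate 2. DESeq2 called 7 genes of the sterol list and edgeR 10. The count of 11 came to 6 without non-targeting replicate 1, 5 without non-targeting replicate 2 and 5 when totals were set equal.

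**Figure D4:**
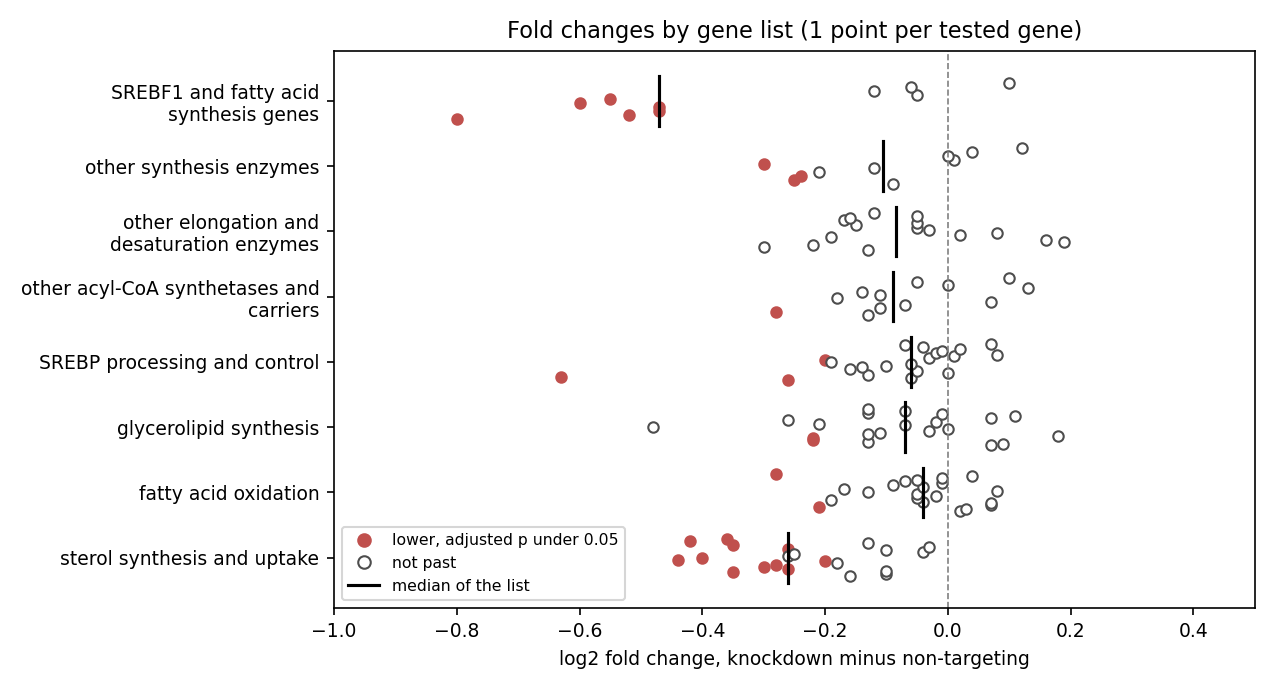
Log2 fold changes, knockdown minus non-targeting (x axis), of every tested gene by list; filled points had an adjusted p under 0.05 over all genes and black lines are list medians. The medians are -0.47 for SREBF1 and the fatty acid synthesis genes, -0.26 for sterol synthesis and uptake and between -0.11 and -0.04 for the others.

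Over the 4 libraries, the 5 genes outside the 10 with a pattern closest to SREBF1 were LINC03040, PLEKHA4, RET, AOC1 and TMEM176B. Closeness was the root mean square difference of log2 values after each gene was centred on its own mean, among 9121 genes with a symbol and a mean of at least 500. It was 0.0646 for the noncoding RNA LINC03040, 0.073 for PLEKHA4, 0.0962 for the receptor tyrosine kinase RET, 0.109 for AOC1 and 0.11 for TMEM176B. RET had 16926 and 17450 normalized counts in the knockdown libraries and 27375 and 26189 in the non-targeting libraries. Of the 9 enzymes FADS2 was the closest at 0.106, between RET and AOC1, followed by FASN at 0.141. With 4 libraries in 2 groups, closeness mostly says that a gene differed between the groups by a similar fold.

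Gene reads numbered 48558537 and 41435922 for the knockdown libraries and 50855150 and 51851314 for the non-targeting libraries. After the authors' scaling the totals were 46567996 and 47257455 in the knockdown libraries and 48837136 and 48781470 in the non-targeting libraries. The targeted RNA, SGO1-AS1 in current naming, had 12 and 17 reads in the knockdown libraries and 24 and 21 in the non-targeting libraries, too few to check the labels. Of all tested genes 660 were lower and 165 higher, so that 80.0% of calls were lower; this share was 69.1% when medians were set equal, 70.2% under quantile scaling and 55.5% when totals were set equal. The 10 monocytic markers summed to 98737 to 104076 normalized counts in the knockdown libraries and 101895 to 107916 in the non-targeting libraries, most of it LYZ and CEBPA. Of the 10 markers 8 had a negative log2 fold change, the median was -0.13, and 5 were at an unadjusted p under 0.05 by limma. Over all 19398 tested genes the median was -0.01, and 3336 were at an unadjusted p under 0.05 by limma. CD4 alone among them passed the threshold, as lower (limma, adjusted p = 0.000193), while the monocyte markers CD14 (94.7 to 105.5 in the knockdown and 104.4 to 110.4 in the non-targeting libraries) and CD68 (16.0 to 16.3 and 17.3 to 21.6) were low. Of 24 markers of lymphoid, erythroid, megakaryocytic, epithelial, fibroblast, liver and fat cells 8 were in the table. Of these PLIN1 was too low to be tested. None of the rest passed by limma, with 0 at an unadjusted p under 0.05 and 0 by edgeR or DESeq2. The highest, NKG7, averaged 1385 normalized counts and the next 180.5. When totals were set equal, 6 members were still called lower, with log2 fold changes from -0.74 for SREBF1 to -0.41 for SCD and FADS1. Beyond this rescaling, the part of library totals and of cell state in the differences above was not tested. In bulk RNA fewer cells expressing a gene and less RNA per cell cannot be told apart.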

How the data were processed

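RNA was sequenced from 4 libraries of THP-1 cells. STAR 2.5.1b, DESeq2 and GRCh38 are named, with no role, per the submitters' processing notes; the sources used here do not give the counting tool, annotation or strand setting. What the authors deposited is a signal: reads per gene over 1 size factor for each library. The size factor of each library was inferred from its values. Multiplied by it, all values were whole reads at a tolerance of 0.01. Each gene has at least 2 reads in knockdown library 1, and genes below that are not analysed here. The knockdown libraries are numbered in column order.

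Symbols (26579 of 27106 matched) came from a table of Ensembl identifiers, and positions and exonic lengths from GENCODE 29 (26077 matched). The test was limma 3.58.1 (R 4.3.3, trended empirical Bayes) on log2(value + 1), a scale that understates the change of low genes. It covered the 19398 genes averaging 10 or more, and p-values were adjusted over them by Benjamini-Hochberg (threshold 0.05). On the recovered reads edgeR called 715 genes, against 825 by limma. The members and the lists were chosen with earlier results of these data known. The genes named were all members, from each list the up to 5 called genes with the smallest p or else the gene with the smallest p, the nearest tested neighbours, the 5 genes other than members most like SREBF1, and the target; other genes named, such as paralogs, were picked with their values known. A gene that this rule selects is not reported here. Alternatives were other filters, pseudocounts and scalings, robust or untrended empirical Bayes, each library left out, and edgeR 4.0.16 and DESeq2 1.42.0 on the recovered reads. Lists were described by counts and medians, with no set test.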

Additional observations from a re-analysis of the deposited data

How the results depend on the processing

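The 6 lower members (SREBF1, FASN, SCD, FADS1, FADS2 and ACSL3) were called lower in 14 of 15 alternatives, with no other member called in any. Limma without a mean-variance trend called 0 members, with 6 at an unadjusted p under 0.05, and 0 genes over all, with 2337 at an unadjusted p under 0.05; the cause was not tested. With 1 library left out, 1 group held only 1 library, so the spread came from the other group and from all genes. Such fits are among the 15 alternatives, and their adjusted p-values say little about replication. In them the log2 fold changes of the 6 lower members ranged from -0.87 for SREBF1 to -0.42 for ACSL3. Over all genes, 825 calls became 476 after quantile normalization, 528 with the same total, 445 with DESeq2 and 715 with edgeR, and 421 to 1220 with 1 library left out, the lowest without non-targeting replicate 1. Without non-targeting replicate 2 it was 544. Over the alternatives SREBF1 ranged from -0.87 to -0.72 in log2 fold change, FASN from -0.57 to -0.41 and ACSL3 from -0.67 to -0.42. Counts on the other lists ranged from 0 to 3, and on the sterol list from 0 to 12. No paired analysis was possible because the columns of the 2 groups share only 1 replicate number. Depth limits ACACA and MIR33B; for the other members the counting error was at most 4.24% in any library.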

Other observations

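ACACA was not alone in differing more within the groups than between them. LPCAT1, a lysophosphatidylcholine acyltransferase named after its values were seen, had 192.8 and 55.9 normalized counts in the knockdown libraries and 191.1 and 110.1 in the non-targeting libraries, with library 1 above library 2 in each group. Its log2 fold change of -0.48 ± 0.33 (SE) was not past the threshold (limma, adjusted p = 0.499).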
